A study of Mus musculus with 12 samples.

Results

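The RNF genes encode RING finger proteins, most of which act as ubiquitin ligases, and were examined here in bone marrow-derived macrophages given hepcidin or PBS. The members are the genes whose symbol is Rnf, a number and at most 1 further letter, without Rnf144b. The rule found 76 genes, each with 1 probe set, among 24675 genes measured. Rnf144b was set aside by the rule with its result known, so counts of lowered genes below leave out the family's largest fall: its log2 difference at 3 h was -1.52 (SE 0.07, adjusted p = 1.09e-07 in limma).

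Total RNA was measured on 12 whole-transcript arrays in 4 groups of 3: PBS at 1 h, hepcidin at 1 h, PBS at 3 h and hepcidin at 3 h. The cells of all groups were grown from marrow of wild-type mice aged 8 to 10 weeks, in medium conditioned by L cells as the source of M-CSF, and were put in DMEM alone for 1 h before the agent was added. Hepcidin is the peptide hormone that binds the iron exporter ferroportin. Its dose is not settled, since the labels give 1 µg/ml in one protocol and 10 µg/ml in another. The labels name no mouse strain and do not tell whether replicate arrays stem from different mice or dishes, so each p-value below weighs a difference against array-to-array spread that could be technical alone. In bulk RNA, fewer cells of a type and less RNA per cell cannot be told apart.

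Ubiquitin is activated by an E1 enzyme, passed to an E2 conjugating enzyme and transferred to a target protein with the help of an E3 ligase. A RING domain holds the loaded E2 and promotes the transfer, whereas RING-between-RING ligases first take ubiquitin onto a cysteine of their own. The chain that results can mark a protein for the proteasome or, as with the linear and lysine-63 chains of Toll-like and TNF receptor signalling in macrophages, build a platform for kinases.

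Values are deposited log2 expression values. Array medians lay between 4.82 and 4.93, and arrays of a group correlated with r of 0.994 to 0.997 over genes. The 7 macrophage markers measured averaged 10.8 to 11.1 per array on the log2 scale, but single markers moved. In limma Mertk, a receptor for the uptake of dying cells, fell at 3 h (log2 difference -1.08, SE 0.18, adjusted p = 0.00375), and Spi1, the transcription factor PU.1, rose (0.30, SE 0.06, adjusted p = 0.00706). Between the hepcidin groups Mertk (-1.28, adjusted p = 0.00141) and Fcgr1 (-0.60, adjusted p = 0.0211) fell and Spi1 rose (0.30, adjusted p = 0.00844). Of 30 markers of neutrophils, dendritic cells, lymphocytes, fibroblasts and erythroid cells, 5 lay above the median gene: Elane, Mpo, Ngp, Col1a1 and Col1a2. In limma 0 of the 30 passed at 1 h and 0 at 3 h (3 and 5 at an unadjusted p under 0.05), and 1 passed between the hepcidin groups, the neutrophil granule gene Mpo (-0.62, SE 0.14, adjusted p = 0.0274). Within the neutrophil list Mpo and Ngp lay apart at 3 h without overlap of the groups, Mpo lower with hepcidin (-0.42, adjusted p = 0.137) and Ngp higher (0.65, adjusted p = 0.114), so the list's mean hides opposite differences. At 3 h the mean level of the neutrophil list was 4.27 to 4.38 with hepcidin and 4.15 to 4.34 in PBS. That of the fibroblast list was 4.46 to 4.73 and 4.37 to 4.54. The part of these cells and of the macrophage marker changes in the results below was not tested.

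The promoters of both genes with the largest rises are shown as examples of the sequence at these genes' starts. Whether the promoters play a part in the changes was not tested. Of the 76 members, 61 were matched by symbol to at least 1 start site in the RefSeq promoter table (GRCm38.p6), in which each window runs from 250 bases before the start to 50 after it. The bases before the start are printed 5′ to 3′ on the gene's strand, in lower case with matches to the kappa B consensus, the site bound by NF-kB, in capitals. The Rnf19b window covers chr4:129057894-129058143 on the plus strand. The first of 3 Rnf145 windows covers chr11:44518706-44518955 and the second chr11:44519127-44519376, both on the plus strand.
Rnf19b: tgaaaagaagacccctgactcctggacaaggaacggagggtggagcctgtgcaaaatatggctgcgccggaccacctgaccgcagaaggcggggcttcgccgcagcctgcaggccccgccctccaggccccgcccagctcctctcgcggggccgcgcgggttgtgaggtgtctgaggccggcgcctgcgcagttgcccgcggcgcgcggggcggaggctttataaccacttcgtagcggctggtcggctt
Rnf145 first start site: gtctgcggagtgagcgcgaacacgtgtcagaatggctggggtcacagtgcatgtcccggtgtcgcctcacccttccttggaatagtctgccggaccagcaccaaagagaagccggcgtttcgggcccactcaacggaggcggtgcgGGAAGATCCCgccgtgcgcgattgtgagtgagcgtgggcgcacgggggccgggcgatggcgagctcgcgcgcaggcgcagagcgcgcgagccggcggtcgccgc
Rnf145 second start site: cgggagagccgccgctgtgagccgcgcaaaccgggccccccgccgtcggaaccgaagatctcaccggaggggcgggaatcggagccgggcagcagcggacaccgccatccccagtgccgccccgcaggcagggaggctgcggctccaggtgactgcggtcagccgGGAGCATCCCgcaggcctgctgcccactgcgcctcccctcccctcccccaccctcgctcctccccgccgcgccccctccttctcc
Rnf19b had no kappa B match in its window. Rnf145 had 1 in each of these windows and none in the third, and both were on the opposite strand. A kappa B match on either strand was found in 11 of 78 member windows (14.1%) and in 8.46% of all 32851 windows of this length. The Rnf4 windows overlap and hold the same site, which is thus counted more than once. By gene, 9 of 61 members and 2581 of 27025 genes with a window had a match. The other members with a match were Rnf2, Rnf4, Rnf7, Rnf39, Rnf121, Rnf166, Rnf180 and Rnf213, whose hepcidin and PBS values did not differ past the threshold at either time. The AP-1 motif TGANTCA, which reads the same on both strands, stood in 7.69% of member windows and 7.81% of all windows, and in neither Rnf19b nor Rnf145. A match is a run of letters and does not show that a factor binds there.

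Most RNF genes changed little after hepcidin. At 1 h 1 of 76 members, Rnf19b, was higher and 0 were lower in limma at an adjusted p under 0.05 over all 24675 genes (8 at an unadjusted p under 0.05, 10.5% against 6.82% of all genes). Among all genes 0.527% were higher and 0.0324% lower at 1 h. At 3 h 5 members passed, with Rnf19b, Rnf145, Rnf14 and Rnf126 higher and Rnf150 lower, and 16 had an unadjusted p under 0.05 (21.1% against 16.9%). Among all genes 0.559% passed at 1 h and 5.33% at 3 h, against 1.32% and 6.58% of members. By direction at 3 h, 5.26% of members were higher against 2.80% of genes, and 1.32% were lower against 2.53%. With Rnf144b counted, 6 of 77 (7.79%) passed at 3 h, 2 of them lower. The share of members that passed at 3 h thus lay near that of all genes, and among the 56 members above the median gene it was 8.93% against 9.73%. The median log2 difference over members was 0.02 at 1 h and 0.03 at 3 h, beside -0.0022 and 0.02 over all genes.

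**Figure D1:**
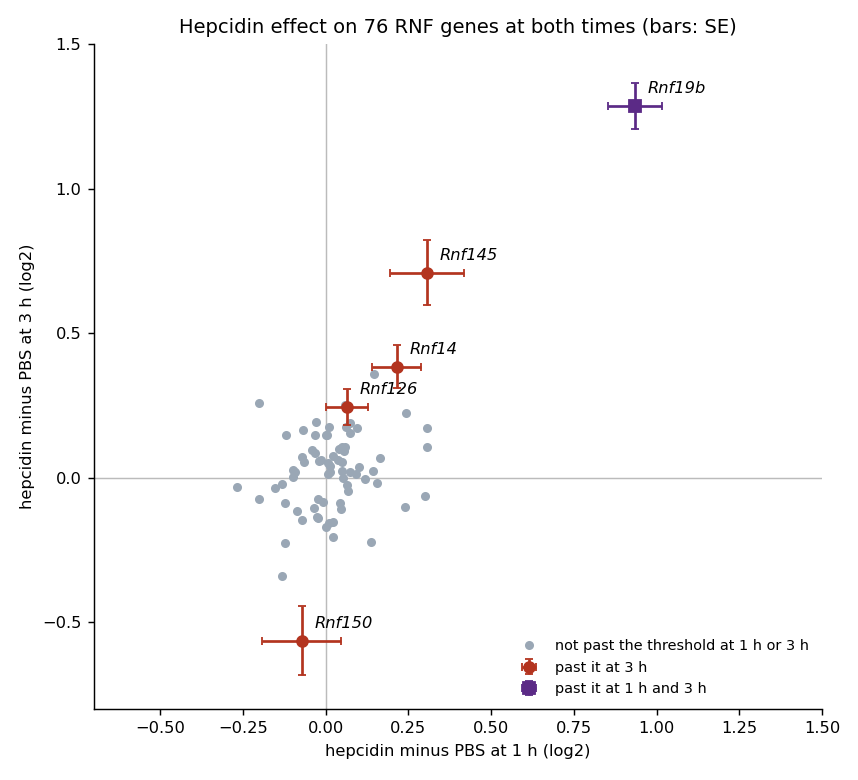
Log2 difference between hepcidin and PBS at 1 h (horizontal) and at 3 h (vertical) for 76 RNF genes, each point 1 gene, with standard errors drawn for genes past the threshold. Rnf19b stands apart at 0.93 and 1.29, Rnf145, Rnf14 and Rnf126 lie above 0 at 3 h, Rnf150 lies at -0.56, and the other points gather around 0.

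The 95% interval of the hepcidin difference lay within a 1.5-fold change in either direction for 75 of 76 members at 1 h and for 72 at 3 h. Of these, 55 and 53 lay above the median gene. The same count was not made over all genes, so it sets no contrast between members and other genes. The group means of a member spanned a median of 0.16 on the log2 scale, against 0.18 for all genes, and the span exceeded 0.5 in 3 members, Rnf19b, Rnf145 and Rnf150, against 6.05% of all genes. The median SD between arrays of a group was 0.091 for members and 0.12 for all genes. At 3 h the hepcidin and PBS arrays did not overlap in 27 members (35.5%), 16 higher and 11 lower, against 21.7% of all genes. At 1 h this held for 7 members (9.21%) against 12.3%. Among members above the median gene the share was 44.6% at 3 h, against 31.4% of all genes above it. At 1 h these shares were 8.93% and 14.8%.

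**Figure D2:**
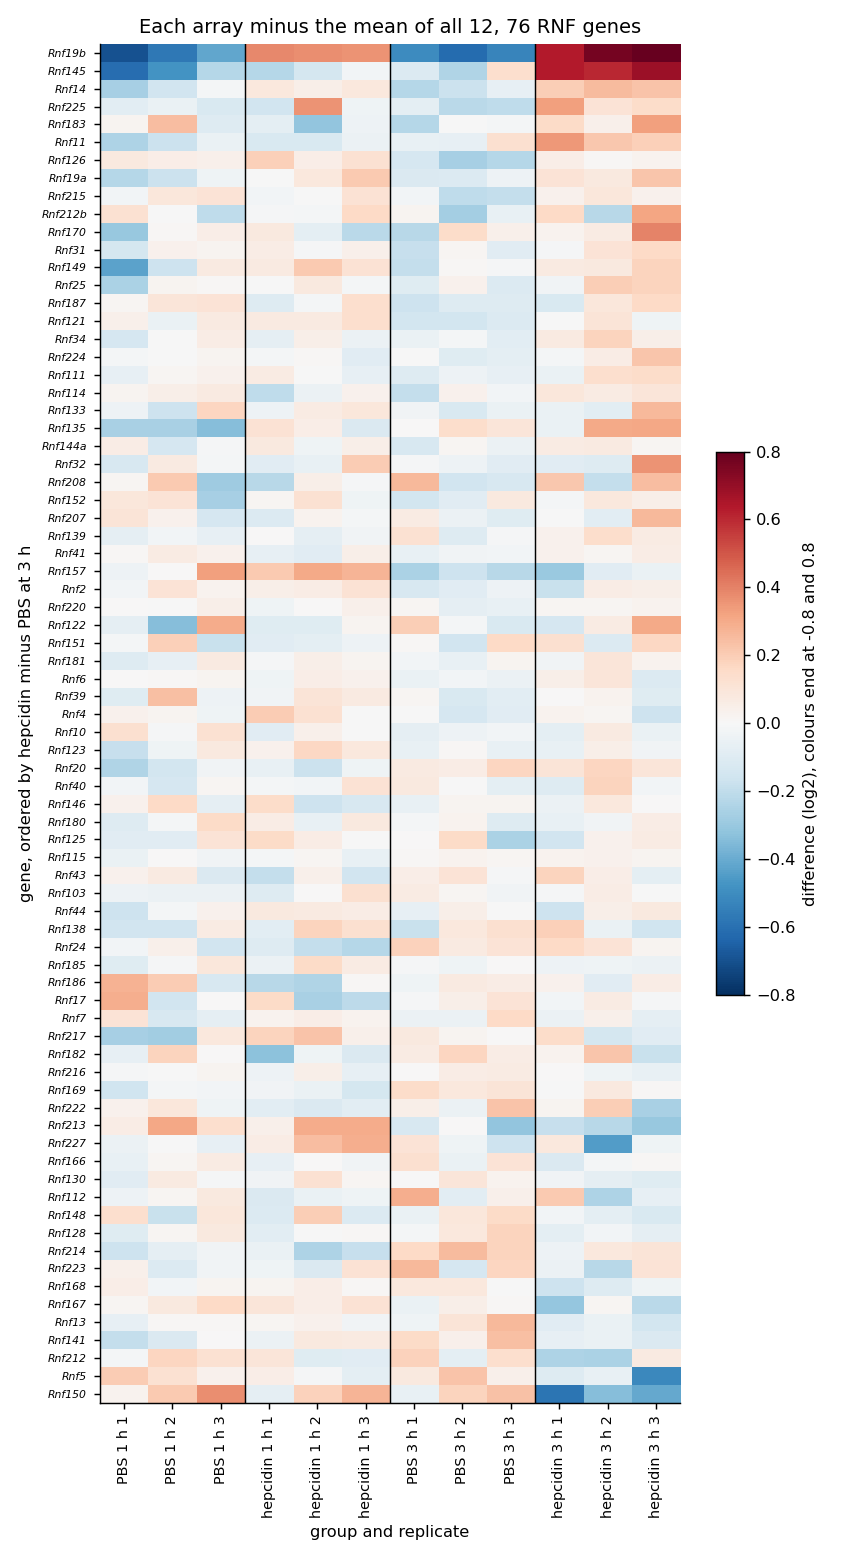
Each of the 12 arrays (columns, by group and replicate) minus the mean of all 12 on the log2 scale, for 76 RNF genes ordered by the hepcidin difference at 3 h. Rnf19b is high in all 6 hepcidin arrays, Rnf145 is highest in the 3 hepcidin arrays of 3 h, Rnf150 is lowest in the same arrays, and most other rows are pale.

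Rnf19b (Entrez gene 75234) encodes a membrane-bound RING-between-RING ligase known as NKLAM, described in natural killer cells and in macrophage phagosomes. In the PBS arrays of 1 h its values were 8.65, 8.77 and 8.93, and with hepcidin they were 9.73, 9.72 and 9.71. At 3 h the PBS arrays gave 8.85, 8.73 and 8.82 and the hepcidin arrays 9.98, 10.11 and 10.16. All hepcidin arrays lay above all PBS arrays at both times, and both PBS groups lay together. Rnf19b rose 1.91-fold at 1 h (log2 difference 0.93, SE 0.08, limma adjusted p = 3.92e-05) and 2.44-fold at 3 h (1.29, SE 0.08, adjusted p = 9.78e-07), and kept both calls under all 20 alternative settings. The difference between both effects was 0.35 (SE 0.11, 95% interval 0.10 to 0.60, adjusted p = 0.262).

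Rnf145 (Entrez gene 74315) encodes a sterol-responsive ligase of the ER membrane that targets HMG-CoA reductase. Its PBS values were 6.69, 6.82 and 7.07 at 1 h and 7.19, 7.06 and 7.44 at 3 h. The hepcidin arrays gave 7.07, 7.16 and 7.27 at 1 h, meeting the highest PBS array, and 7.93, 7.90 and 7.98 at 3 h, above every other array. Rnf145 rose 1.63-fold at 3 h (log2 difference 0.71, SE 0.11, adjusted p = 0.00187), a call kept under all 20 settings. At 1 h the difference was 0.31 (SE 0.11, adjusted p = 0.588), and in PBS from 1 h to 3 h it was 0.37 (SE 0.11, adjusted p = 0.216). The effects at 3 h and 1 h differed by 0.40 (95% interval 0.06 to 0.74, adjusted p = 0.381).

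Rnf14 (Entrez gene 56736) encodes a RING-between-RING ligase first known as the androgen receptor coactivator ARA54. It read 8.52, 8.63 and 8.77 in PBS and 8.87, 8.83 and 8.87 with hepcidin at 1 h. At 3 h it read 8.56, 8.61 and 8.72 in PBS and 8.98, 9.04 and 9.01 with hepcidin. The groups did not overlap at either time, and the rise passed at 3 h (1.30-fold, log2 difference 0.38, SE 0.07, adjusted p = 0.00838) under all 20 settings. The 1 h difference was 0.21 (SE 0.07, adjusted p = 0.544).

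Rnf126 (Entrez gene 70294) encodes a cytosolic ligase that works with BAG6 on mislocalised proteins. PBS arrays read 9.50, 9.48 and 9.47 at 1 h and 9.29, 9.16 and 9.20 at 3 h, while hepcidin arrays read 9.62, 9.48 and 9.55 and then 9.48, 9.44 and 9.46. The 3 h hepcidin values thus lay close to the 1 h PBS values, and the PBS arrays of 3 h were the low ones. The difference at 3 h was 0.24 (SE 0.06, adjusted p = 0.0449) beside -0.27 in PBS from 1 h to 3 h (SE 0.06, adjusted p = 0.109). This call was lost under 12 of 20 settings, among them all but PBS 3 h replicate 1 and hepcidin 1 h replicate 1 of the left-out arrays, with adjusted p-values from 0.00797 to 0.171 over all settings.

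Rnf150 (Entrez gene 330812) encodes a transmembrane ligase with a protease-associated domain, the family of GRAIL and Goliath. Its values were 7.17, 7.35 and 7.51 in PBS and 7.07, 7.33 and 7.42 with hepcidin at 1 h, and 7.09, 7.32 and 7.38 in PBS at 3 h. The hepcidin arrays of 3 h, at 6.56, 6.80 and 6.73, lay below every other array. Rnf150 fell at 3 h, 1.48-fold lower (log2 difference -0.56, SE 0.12, adjusted p = 0.0145) and its 1 h difference was -0.07 (SE 0.12, adjusted p = 0.968). The fall missed the threshold without PBS 3 h replicate 2 (adjusted p = 0.0629), PBS 3 h replicate 3 (0.0718) or hepcidin 3 h replicate 1 (0.0540), where 3 members in place of 5 passed at 3 h. The effects at 3 h and 1 h differed by -0.49 (95% interval -0.86 to -0.13, adjusted p = 0.292), and in limma 0 members passed for this difference (7 at an unadjusted p under 0.05, 9.21% against 10.1% of all genes, of which 1.03% passed, 0.523% higher and 0.507% lower). With the replicate number as a block 1 member, Rnf150, passed for this difference. Its replicate 1 was the lowest array in each of the 4 groups.

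**Figure D3:**
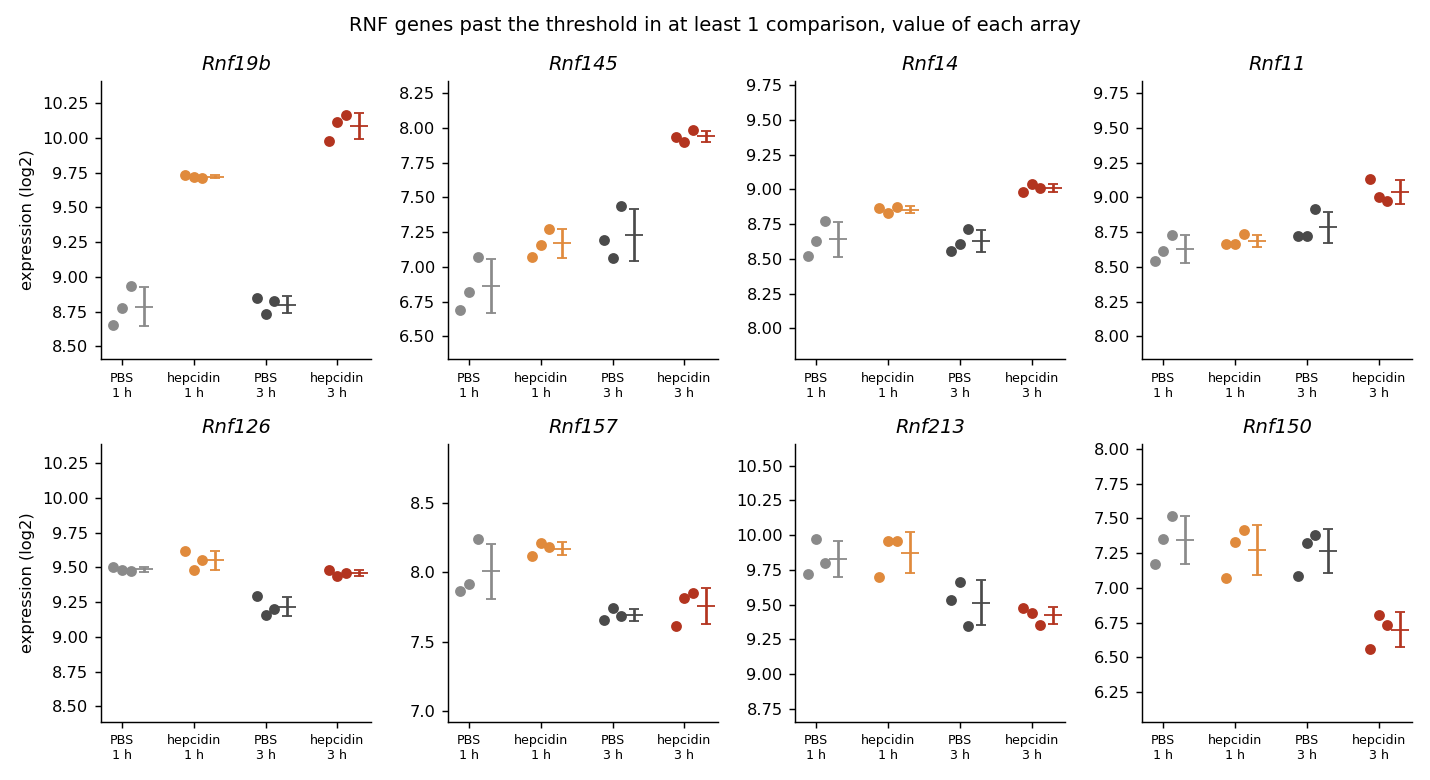
Expression (log2) of the 8 RNF genes past the threshold in at least 1 of 5 comparisons, with 1 point per array, and the mean and SD of each group of 3 beside them. Each panel spans 2 log2 units around its own middle, and panels are not to be compared in level. Rnf19b separates by treatment at both times, and Rnf145 and Rnf150 stand apart in the hepcidin arrays of 3 h.

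By role, members were read against lists chosen with earlier results of these data known. In these lists 52 of the 76 members stand, 6 of them in 2 lists. Of the genes listed, Rnf8 and Rnf26 were not analysed here. Among 11 measured genes of innate and NF-kB signalling, Rnf19b rose at both times and 10 did not pass. Rnf31, the catalytic subunit of the linear ubiquitin assembly complex, read 6.67, 6.85 and 6.83 in PBS and 6.87, 6.80 and 6.85 with hepcidin at 1 h. At 3 h it read 6.63, 6.83 and 6.73 in PBS and 6.80, 6.93 and 6.97 with hepcidin, overlapping groups with a difference of 0.17 (SE 0.08, adjusted p = 0.278). Rnf11, a cofactor of the A20 deubiquitinating complex, read 8.72, 8.72 and 8.92 in PBS and 9.13, 9.00 and 8.97 with hepcidin at 3 h. These groups did not overlap, and the difference of 0.25 (SE 0.08) had an adjusted p = 0.104, which ranged from 0.0458 to 0.290 over the alternatives. Rnf135, known as Riplet and needed for RIG-I activation, had 1 h values of 5.69, 5.69 and 5.61 in PBS and 6.07, 6.01 and 5.84 with hepcidin, a difference of 0.30 (SE 0.10, adjusted p = 0.476). Rnf213, a very large ATPase and ligase, differed by 0.04 at 1 h and -0.09 at 3 h (SE 0.10 each).

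The 7 RING-between-RING genes measured had a median difference of 0.21 at 1 h and 0.17 at 3 h. Over all genes the medians were -0.0022 and 0.02. The 7 differences ran from -0.02 to 0.93 at 1 h and from -0.08 to 1.29 at 3 h. Rnf19b passed at both times and Rnf14 at 3 h. Rnf19a, the closest relative of Rnf19b and known as Dorfin, read 7.06, 7.11 and 7.25 in PBS and 7.29, 7.37 and 7.50 with hepcidin at 1 h. At 3 h its PBS arrays gave 7.17, 7.18 and 7.25 and its hepcidin arrays 7.40, 7.37 and 7.51. Hepcidin arrays lay above PBS arrays at both times, by 0.24 (SE 0.08, adjusted p = 0.445) and 0.22 (SE 0.08, adjusted p = 0.139), and neither difference passed. Rnf217 differed by 0.30 at 1 h (SE 0.11, adjusted p = 0.575) and -0.06 at 3 h. Rnf144b, which the rule leaves out, belongs to the same class and read 7.85, 7.85 and 7.75 in PBS and 6.20, 6.27 and 6.41 with hepcidin at 3 h. The class medians above do not include Rnf144b, which differed by -0.18 at 1 h (limma adjusted p = 0.650) and -1.52 at 3 h.

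Of 7 ER membrane and sterol genes Rnf145 alone passed. Rnf5, a ligase of ER-associated degradation, read 7.70, 7.86 and 7.67 in PBS and 7.52, 7.57 and 7.11 with hepcidin at 3 h, with replicate 3 lowest (difference -0.34, SE 0.11, adjusted p = 0.114). Over the alternatives its adjusted p began at 0.0463, reached with the replicate number as a block. Rnf170, which acts on the inositol trisphosphate receptor, differed by 0.18 at 3 h (SE 0.13, adjusted p = 0.574).

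The 9 transmembrane genes with a protease-associated domain had a median difference of -0.14 at 3 h and 0.0014 at 1 h. The 3 h median was the value of Rnf148, a gene below the median gene (limma adjusted p = 0.578). At 3 h the list ran from -0.56 to 0.17, and the median over all genes was 0.02. Rnf150 was the 1 member to pass. Rnf13, an endolysosomal ligase, read 10.22, 10.35 and 10.51 in PBS and 10.15, 10.19 and 10.10 with hepcidin at 3 h, groups that did not overlap (difference -0.21, SE 0.08, adjusted p = 0.168). Rnf149 differed by 0.31 at 1 h (SE 0.11, adjusted p = 0.578) and 0.17 at 3 h (adjusted p = 0.483).

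Among ligases of chromatin and DNA repair, limma called 0 of 9 measured members at 1 h and 0 at 3 h (0 and 1 at an unadjusted p under 0.05). Their 3 h differences ran from -0.23, in Rnf212, to 0.15. Those of other lists were as narrow, from -0.05 to 0.24 for protein quality control and cullin ligases. For the list of germ cells, nerve and heart they ran from -0.23 to 0.11. Rnf2, which ubiquitylates histone H2A in the polycomb repressive complex, differed by 0.06 at 3 h (95% interval -0.10 to 0.23). Rnf20 and Rnf40, partners in histone H2B ubiquitylation, both differed by 0.02 (95% intervals -0.14 to 0.18 and -0.17 to 0.20). Rnf168, a ligase of the double-strand break response, read 9.09, 9.08 and 8.99 in PBS and 8.83, 8.89 and 8.97 with hepcidin at 3 h (difference -0.16, SE 0.06, adjusted p = 0.215). Rnf111, known as Arkadia, a SUMO-targeted ligase that enhances TGF-beta signalling, differed by 0.15 (SE 0.07, adjusted p = 0.335).

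Of 7 genes of protein quality control and cullin ligases, Rnf126 passed at 3 h. Rnf25 differed by 0.17 (adjusted p = 0.374) and Rnf34 by 0.15 (adjusted p = 0.324). In the list of 8 genes best known from germ cells, nerve and heart, limma called 0 at 1 h and 0 at 3 h (0 at an unadjusted p under 0.05 at either time). At 3 h Rnf212, a meiotic crossover factor that is also in the chromatin list, differed by -0.23 (SE 0.11, adjusted p = 0.307), Rnf148 by -0.14 and Rnf112 by -0.12. All of these lie among the 20 members at or below the median gene, with Rnf43, Rnf125, Rnf152, Rnf182, Rnf183, Rnf208, Rnf212b, Rnf222, Rnf223, Rnf224, Rnf225 and Rnf227. For these 20, near the background of the arrays, a difference can read smaller than it is, and limma called 0 at 1 h and 0 at 3 h (0 and 2 at an unadjusted p under 0.05). Rnf225 read 4.35, 4.22 and 4.23 in PBS and 4.76, 4.54 and 4.58 with hepcidin at 3 h (difference 0.36, SE 0.11, adjusted p = 0.104). It passed without hepcidin 1 h replicate 2 (adjusted p = 0.0222), a value that ranged up to 0.260 over the alternatives.

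Rnf141 and Rnf186, among the lowest p-values, stand in no role list. Rnf141 read 9.16, 9.05 and 9.25 in PBS and 8.94, 8.96 and 8.89 with hepcidin at 3 h, without overlap (difference -0.22, SE 0.08, adjusted p = 0.129). At 1 h its difference was 0.14 (SE 0.08, adjusted p = 0.816), and the effects differed by -0.36 (SE 0.11, adjusted p = 0.203). Rnf186 differed by -0.27 at 1 h (SE 0.11, adjusted p = 0.649). The 47 members not singled out by the naming rule differed by -0.20 to 0.24 at 1 h and by -0.17 to 0.26 at 3 h, with the lowest adjusted p at 0.790 and 0.187.

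**Figure D4:**
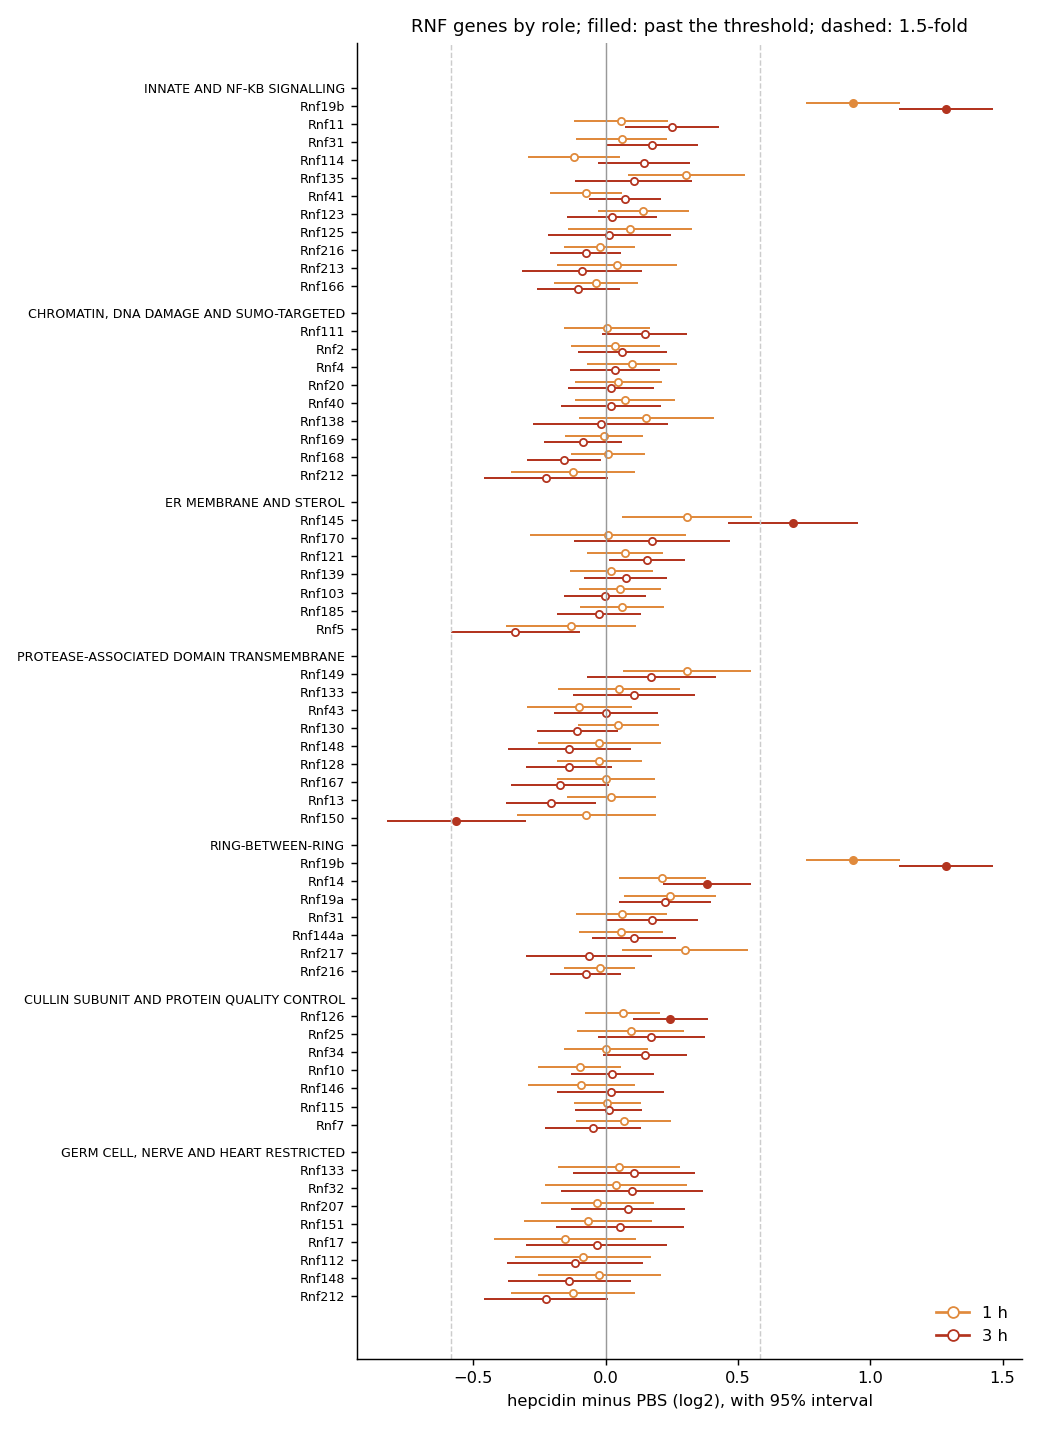
Hepcidin minus PBS on the log2 scale with 95% intervals at 1 h and 3 h for the 52 RNF genes in 7 role lists; filled points passed the threshold and dashed lines mark a 1.5-fold change. Rnf19b lies beyond the upper line at both times, and the intervals of Rnf145 and Rnf150 cross a line at 3 h.

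The change from 1 h to 3 h was read in each arm. With hepcidin it joins time and length of exposure to the peptide. In PBS from 1 h to 3 h limma called 0 members (13 at an unadjusted p under 0.05, 17.1% against 10.6% of all genes, of which 0.450% passed, 0.207% higher and 0.243% lower), and 18 did not overlap (23.7% against 17.7%). Among hepcidin arrays 6 members passed between 1 h and 3 h, 3 higher and 3 lower, 7.89% against 5.05% of all genes (2.44% higher and 2.61% lower). At an unadjusted p under 0.05 there were 12 (15.8% against 16.6%), and 21 did not overlap (27.6% against 20.1%). Rnf145 rose by 0.77 (SE 0.11, adjusted p = 0.00137), Rnf19b by 0.37 (SE 0.08, adjusted p = 0.0209) and Rnf11 by 0.35 (SE 0.08, adjusted p = 0.0245). Rnf150 changed by -0.57 (SE 0.12, adjusted p = 0.0145), Rnf213 by -0.45 (SE 0.10, adjusted p = 0.0245) and Rnf157, a relative of mahogunin, by -0.41 (SE 0.10, adjusted p = 0.0309).

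Rnf145 also read higher with time in PBS, as given above, by a difference that did not pass. Rnf213 and Rnf157 also read lower with time in PBS. Rnf213 gave 9.72, 9.97 and 9.80 in PBS at 1 h and 9.53, 9.67 and 9.34 at 3 h (difference -0.32, SE 0.10, adjusted p = 0.246), beside 9.70, 9.96 and 9.96 and then 9.48, 9.44 and 9.36 with hepcidin. Rnf157 gave 7.87, 7.91 and 8.24 and then 7.65, 7.74 and 7.69 in PBS (-0.31, SE 0.10, adjusted p = 0.232), beside 8.12, 8.21 and 8.18 and then 7.61, 7.82 and 7.85 with hepcidin. In both genes the arrays separated by time in each arm, and hepcidin and PBS overlapped at 3 h. Of these 6 calls only that of Rnf145 was kept under all 20 settings. It was the 1 member that passed when replicate 2 or replicate 3 of hepcidin at 1 h was left out, and 3 passed when replicate 1 of hepcidin at 3 h was.

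Other genes of the ubiquitin pathway were read from lists of names, chosen with earlier results of these data known. As background for these counts, 0.527% of all genes were higher and 0.0324% lower at 1 h. At 3 h 2.80% were higher and 2.53% lower, and the shares at an unadjusted p under 0.05 in limma were 6.82% and 16.9%. Of 30 measured E2 conjugating enzymes 1 rose at 1 h, 2 rose at 3 h and 0 fell (4 and 5 at an unadjusted p under 0.05 in limma). Ube2f, an E2 for the ubiquitin-like protein NEDD8, rose by 0.56 at 1 h (SE 0.11, adjusted p = 0.0485) and by 0.55 at 3 h (SE 0.11, adjusted p = 0.0100). Ube2e2 read 6.67, 6.65 and 6.71 in PBS and 7.46, 7.61 and 7.71 with hepcidin at 3 h, a rise of 0.91 (SE 0.10, adjusted p = 1.52e-04), and its effects at 3 h and 1 h differed by 0.92 (adjusted p = 0.0108). Of 5 linear ubiquitin chain genes, limma called 0 at 1 h and 0 at 3 h (1 and 0 at an unadjusted p under 0.05). Of 6 ubiquitin and E1 genes 1 was matched here, Uba6, which differed by -0.12 and 0.11. Of 21 measured RING ligases with other names 1 rose at 1 h, and 4 rose and 1 fell at 3 h (4 and 8 at an unadjusted p under 0.05). Birc3, the inhibitor of apoptosis cIAP2, rose by 0.85 and 1.09 (adjusted p = 6.46e-04 and 2.56e-05), and Siah2, named after its value was seen, rose by 0.30 at 3 h (adjusted p = 0.0313). At 3 h Traf2, an adaptor of TNF receptors, rose by 0.64 (adjusted p = 1.49e-04) and Znrf1 by 0.56 (adjusted p = 0.00129). Cblb, a negative regulator of immune receptors, fell by 0.58 on the log2 scale (adjusted p = 4.82e-04).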

How the data were processed

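Each sample is 1 Affymetrix whole-transcript array. The deposited values are used as log2 values: RMA and Partek stand in the submitters' processing notes without a version or a role, the range of the values fits log2, and no label writes the log base. No genome build is given in the sources used here. Of 25429 probe sets, 24675 carried 1 gene symbol, all matched by Entrez ID to the RefSeq table of GRCm38.p6, and 754 are not named here. No filter was applied.

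The limma package (3.58.1, under R 4.3.3) fitted 4 group means to all 24675 genes and moderated the variances (8 residual and 4.11 prior degrees of freedom). Of the 5 comparisons, those of hepcidin with PBS at 1 h and at 3 h share no array. The Benjamini-Hochberg adjustment covered all genes of a comparison, with 0.05 as the threshold. Errors are moderated SEs. The procedure was tested on simulated data with independent noise between arrays and changes only in genes above the median. That test does not cover genes below the median or a source shared by same-numbered arrays.

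Named are the members past the threshold, the 5 next lowest p at 1 h and at 3 h, the 3 largest 3 h differences of each role list, Rnf31, Rnf2, Rnf20, Rnf40, Rnf168 and Rnf213, and pathway genes past the threshold at 1 h or 3 h (up to 4 a list). Siah2, Uba6 and the marker genes were named after their values were seen. Members and lists were chosen with earlier results of these data known. Alternatives were array weights, a trended and robust prior, the replicate block, genes above the median mean, repeated quantile normalization, median centring, all probe sets, only the groups compared, and each array left out.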

Additional observations from a re-analysis of the deposited data

How the results depend on the processing

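The count of members at 1 h was 1 under all 20 alternatives. At 3 h it was 3 to 5 with 1 array left out and 4 to 6 otherwise. Between the hepcidin groups it was 1 to 7 with 1 array left out, against 6, and 2 with only the groups compared. For the difference between both effects it was 1, Rnf150, with the replicate number as a block, and 0 with any array left out. In PBS over time it was 1, Rnf126, with a trended and robust prior, with genes above the median mean or with array weights. A tally was made over the hepcidin differences of the named members at 1 h and 3 h and the called changes between the hepcidin groups. It leaves out the differences between effects and the changes in PBS over time. Of its 12 called values, 5 kept their call under every alternative and 7 lost it under at least 1. Of its 52 values that did not pass, 3 passed under at least 1. No called value changed sign, whereas 13 of those 52 did. Same-numbered arrays correlated in their deviations with r from -0.0054 to 0.25, over 0.1 in 9 of 18 pairs. The main fit does not pair them, because the labels state no design, and the replicate block stands among the alternatives. All 12 arrays correlated best, on average over the other groups, with the arrays of their own number, a hint from the data that the number marks a shared source, which the labels do not state. The fit of only the groups compared could not be made for the difference between effects, which uses all 4. The 3 arrays per group and the background under the 20 dim members limit what could be detected.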
